A study of Mus musculus with 62 samples.

Results

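The 7 genes described here encode the core of the brain's endocannabinoid system. They are Cnr1, the CB1 receptor; Dagla and Daglb, the diacylglycerol lipases that make 2-arachidonoylglycerol (2-AG); Mgll and Abhd6, hydrolases that break 2-AG down; Napepld, a phospholipase that releases anandamide; and Faah, the hydrolase that breaks anandamide down. They were chosen by name, and all 7 were found among the 11121 genes of the deposited count table by their Ensembl identifiers. RNA was sequenced from prefrontal cortex (PFC) and nucleus accumbens (NAc), the ventral part of the striatum, of male wild-type C57BL/6j mice aged 15 weeks. Mice exposed to chronic restraint stress in a multimodal protocol (mCRS) were compared with unstressed controls (CTR), and tissue was taken days after the last stress session. No other treatment or allele is given by the labels. The table holds 62 libraries: 15 PFC CTR, 15 PFC mCRS, 16 NAc CTR and 16 NAc mCRS. Libraries were made by BRB-seq, a pooled method that primes from the poly(A) tail and counts reads near the 3′ ends of transcripts. Total counts ranged from 945286 to 4857359 per library.

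In the brain, 2-AG and anandamide are made on demand in the postsynaptic cell, travel backwards across the synapse and bind presynaptic CB1 receptors, which couple to inhibitory G proteins and lower transmitter release. 2-AG is the main messenger of this retrograde inhibition, and its signal is ended by hydrolysis. In cortex, CB1 is richest in interneurons that contain cholecystokinin and is present at lower levels in excitatory terminals. In striatum it is carried by the projection neurons and by their cortical inputs.

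The mouse genes lie on several chromosomes (build GRCm38, GENCODE M21 annotation). Cnr1 (ENSMUSG00000044288) is at chr4:33924593-33948831 on the plus strand, and Faah (ENSMUSG00000034171) lies on the minus strand of the same chromosome at chr4:115967145-116017926. Dagla (ENSMUSG00000035735) is at chr19:10245265-10304877, minus strand, and Daglb (ENSMUSG00000039206) at chr5:143464584-143505942, plus strand. Mgll (ENSMUSG00000033174) is at chr6:88724412-88828360, plus strand, Abhd6 (ENSMUSG00000025277) at chr14:8002902-8056763, plus strand, and Napepld (ENSMUSG00000044968) at chr5:21662901-21701396, minus strand. One of the 7 genes shares its 3′ end with a neighbour: all 931 windows of 70 bases in the last 1000 bases of Daglb transcripts also lie, on the opposite strand, in transcripts of Rac1, a small GTPase gene that is also counted. Whether the counting used strand is not given in the sources used here, so Daglb values are uncertain. Of 1833 such windows of Abhd6, 58 also occur in Gm1833, and none of the windows of the other 5 genes occurs in another gene.

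Cnr1, Mgll and Faah were the members that differed between regions, and their promoter sequences are shown for that reason. RefSeq windows on GRCm38.p6 were found for 6 of the 7 genes, Dagla being the exception. Each sequence is read 5′ to 3′ on the gene's strand and covers the 250 bases before its most upstream RefSeq start site (248 for Faah, after bases inside an exon were left out). The windows are chr4:33924014-33924263 for Cnr1, chr6:88724162-88724411 for Mgll and chr4:116017927-116018174 for Faah. Capitals mark matches, on either strand, to the GC box GGGCGG, the E-box CANNTG, the glucocorticoid receptor half-site AGAACA, the TATA box TATAAA and the cAMP response element core TGACG, which is also contained in the full element TGACGTCA.
Cnr1: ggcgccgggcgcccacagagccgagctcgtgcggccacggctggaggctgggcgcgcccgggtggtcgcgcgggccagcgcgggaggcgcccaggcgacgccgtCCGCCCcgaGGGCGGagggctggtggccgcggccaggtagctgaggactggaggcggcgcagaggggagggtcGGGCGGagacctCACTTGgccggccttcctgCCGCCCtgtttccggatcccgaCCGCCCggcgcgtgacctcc
Mgll: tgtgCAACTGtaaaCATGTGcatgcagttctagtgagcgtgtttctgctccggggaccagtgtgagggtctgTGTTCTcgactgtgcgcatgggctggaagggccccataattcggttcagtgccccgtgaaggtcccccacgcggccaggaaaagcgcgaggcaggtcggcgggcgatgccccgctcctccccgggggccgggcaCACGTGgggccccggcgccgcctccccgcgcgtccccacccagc
Faah: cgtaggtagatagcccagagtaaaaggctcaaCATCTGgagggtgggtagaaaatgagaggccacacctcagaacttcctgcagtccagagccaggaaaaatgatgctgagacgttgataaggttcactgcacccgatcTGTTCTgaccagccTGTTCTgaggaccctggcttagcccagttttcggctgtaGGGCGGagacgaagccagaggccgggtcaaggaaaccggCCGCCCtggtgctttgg

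The Cnr1 window held 5 GC boxes and 1 E-box. The Faah window held 2 GC boxes, 1 E-box and 2 glucocorticoid half-sites. The Mgll window held 3 E-boxes, 1 glucocorticoid half-site and no GC box. Among 32851 promoter windows of 250 bases, 32.7% held a GC box, 66.2% an E-box, 16.1% the half-site, 12.4% the TATA box, 17.8% TGACG and 1.55% TGACGTCA. The 3 windows had no TATA box and no TGACG, and their GC content was 79.2% for Cnr1, 68.0% for Mgll and 55.6% for Faah. None of these motifs other than the E-box was shared by all 3 windows. A match describes the letters only.

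A pair of NAc libraries stood apart. In NAc CTR 7, the summed level of 12 striatal projection neuron markers was 600 counts per 1000000 (CPM), against at least 3032 CPM in the other NAc libraries and 541 to 1825 CPM in PFC, while its 11 cortical excitatory markers were also the lowest of its group (146 CPM). NAc mCRS 10 carried 24152 CPM of choroid plexus markers, against at most 547 CPM elsewhere. Over all libraries, the markers followed the labelled regions. Of 12 striatal markers, 11 were called higher in NAc than in PFC of CTR mice and 12 in mCRS mice (false discovery rate under 0.05). In CTR mice 8 of 11 cortical markers were called lower in NAc. No marker was at 0 in a whole group. The share of the table's genes with a count was 82.3% ± 6.2 in PFC mCRS and 87.1% ± 4.4 in PFC CTR libraries (SD, n = 15 each).

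**Figure D1:**
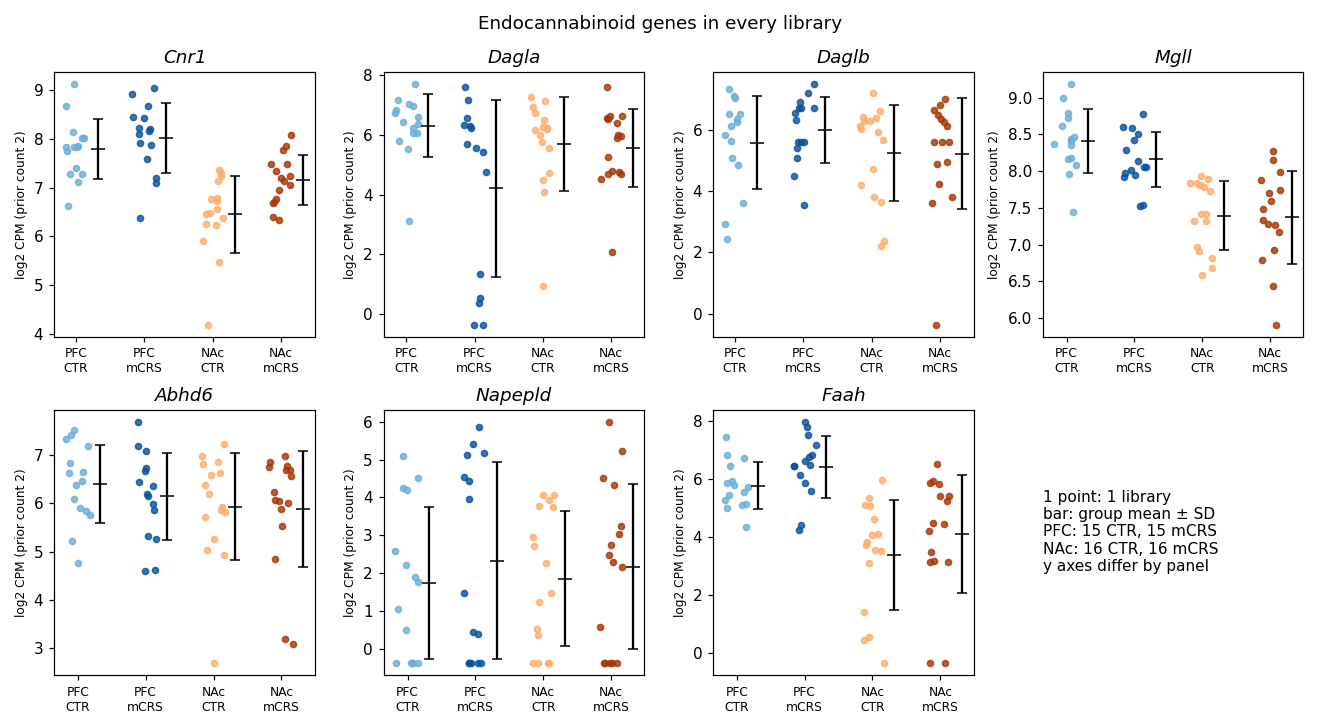
Each point is the level of a gene in 1 library, as log2 CPM with a prior count of 2, with the group mean ± SD beside it; axes differ between panels. Cnr1, Mgll and Faah have lower means in both NAc groups (32 libraries) than in both PFC groups (30 libraries), though single libraries overlap. For Dagla, 5 of the 15 PFC mCRS libraries lie far below the rest.

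The first question was whether the regions differ in these genes. They did for 3 members: Cnr1, Mgll and Faah were lower in NAc than in PFC, in CTR and in mCRS mice. The 2-AG synthesizing lipases and Abhd6 did not pass the test. All 6 members tested in CTR mice had values below 0, and whether the called members differed from the others was not tested. In CTR mice 3 of the 6 members tested were called at a false discovery rate (FDR, Benjamini-Hochberg over all genes, edgeR's quasi-likelihood test) under 0.05, all 3 lower in NAc. Of the 9932 genes tested, 6.32% were called, 4.23% lower and 2.09% higher. In mCRS mice 3 of 7 members were called, again lower, against 6.31% of 9452 genes called, 4.23% lower and 2.07% higher. The members' median log2 fold change was -0.70 in CTR and -0.50 in mCRS mice, and the median over all genes was 0.02 and 0.03. Napepld passed the filter on low counts only in the mCRS comparison. PFC and NAc tissue came from the same mice, and the test treats the libraries as independent because those of 1 mouse could not be matched. Bulk tissue cannot tell fewer cells of a type from less RNA per cell, and the regions also differed in cell markers. In NAc of CTR mice 8 of 11 cortical excitatory markers were called lower and 6 of 9 oligodendrocyte markers called higher. Summed oligodendrocyte levels in CTR mice were 1892 to 6500 CPM in PFC and 5573 to 8626 CPM in NAc. In mCRS mice they were 2828 to 7322 CPM in PFC and 5502 to 9022 CPM in NAc. Summed interneuron markers spanned 1678 to 2666 CPM in PFC and 631 to 980 CPM in NAc of CTR mice, and much of that sum was Cck and Sst. Of the 9 interneuron markers tested, 3 were called lower in NAc and none higher, and 4 had values above 0 (median -0.35). Cck, the cholecystokinin gene, had a log2 fold change of -4.23 (SE 0.22). Its mean log2 CPM was 10.20 in PFC CTR and 5.75 in NAc CTR. Slc17a7, a cortical excitatory marker, had 9.32 and 5.71. Which cells held the Cck RNA cannot be told from bulk tissue. The part of these markers in the members' differences was not tested.

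The level of Cnr1 ranged from 97.7 to 559 CPM in PFC CTR (median 228 CPM) and from 82.1 to 526 CPM in PFC mCRS (median 285 CPM). It ranged from 17.5 to 163 CPM in NAc CTR (median 91.2 CPM) and from 80.2 to 269 CPM in NAc mCRS (median 143 CPM). All 16 NAc CTR libraries lay below the PFC CTR median, and 9 of them lay below the lowest PFC CTR library. In mCRS mice all 16 NAc libraries were again below the PFC median, but only 1 was below the lowest PFC library, so the groups overlapped. The log2 fold change of NAc against PFC was -1.30 (SE 0.24, 95% interval -1.78 to -0.82, FDR = 9.69e-05) in CTR mice, a 2.46-fold lower level. In mCRS mice it was -0.94 (SE 0.22, -1.38 to -0.50, FDR = 0.00248). NAc CTR 7 was the lowest of all 62 libraries for Cnr1, at 17.5 CPM, and without it the CTR value was -1.23 (FDR = 7.89e-05).

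Mgll, the monoacylglycerol lipase, hydrolyses most 2-AG in brain. It ranged from 173 to 582 CPM in PFC CTR (median 340 CPM) and from 95.1 to 243 CPM in NAc CTR (median 170 CPM). As for Cnr1, all 16 NAc CTR libraries were below the PFC CTR median and 9 were below the lowest PFC CTR library. In mCRS mice it ranged from 184 to 440 CPM in PFC (median 266 CPM) and from 59.4 to 309 CPM in NAc (median 170 CPM), with 14 of 16 NAc libraries below the PFC median. The log2 fold change was -1.01 (SE 0.17, -1.36 to -0.66, FDR = 2.88e-05) in CTR and -0.72 (SE 0.20, -1.12 to -0.33, FDR = 0.0133) in mCRS mice. Without NAc CTR 7, which was also the lowest of its group for Mgll, the CTR value was -0.97 (FDR = 5.59e-05).

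Faah, fatty acid amide hydrolase, showed the largest regional fold change of the 7 genes and the widest spread among the 3 called. It ranged from 19.5 to 177 CPM in PFC CTR (median 52.4 CPM) and from 0 to 61.3 CPM in NAc CTR (median 12.9 CPM). In NAc CTR, 11 of 16 libraries lay below the lowest PFC CTR library, and 3 held 2 counts or fewer. In mCRS mice it ranged from 18.3 to 251 CPM in PFC (median 88.8 CPM) and from 0 to 91.0 CPM in NAc (median 21.4 CPM), where 2 libraries were at 0. The log2 fold change was -1.84 (SE 0.55, -2.94 to -0.74, FDR = 0.0263) in CTR and -1.83 (SE 0.50, -2.83 to -0.83, FDR = 0.0127) in mCRS mice, a 3.59-fold and a 3.55-fold lower level. The call in CTR mice was lost without either of a pair of PFC libraries: leaving out PFC CTR 10, the highest of its group at 177 CPM, gave -1.65 (FDR = 0.0793), and leaving out PFC CTR 2 gave -1.76 (FDR = 0.050, just above the threshold). In mCRS mice the FDR was 0.0605 after adjustment for the detected share of the table's genes per library.

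The lipases that make 2-AG were not called. Dagla, the main 2-AG synthase of the adult brain, had a median of 85.3 CPM in PFC CTR (7.94 to 208 CPM) and 72.2 CPM in NAc CTR (1.12 to 155 CPM), with overlapping groups. Its log2 fold change of NAc against PFC was -0.39 (-1.13 to 0.35) in CTR and 0.19 (-0.99 to 1.36) in mCRS mice. Daglb, whose 3′ end lies over Rac1, gave -0.29 (-1.19 to 0.60) and -0.50 (-1.39 to 0.39). These intervals include a 2-fold difference in at least one direction, so the data do not show that the lipases are equal between regions.

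Abhd6, the other 2-AG hydrolase, likewise had overlapping groups, with medians of 87.4 CPM in PFC CTR (26.3 to 184 CPM) and 66.5 CPM in NAc CTR (5.65 to 149 CPM). Its log2 fold change was -0.37 (-1.03 to 0.28) in CTR and -0.19 (-0.94 to 0.55) in mCRS mice. Napepld was near the detection limit: 1577 counts were found over all 62 libraries and 19 libraries were at 0. In PFC its medians were 2.61 CPM (CTR) and 2.03 CPM (mCRS), and in NAc 3.05 CPM (CTR) and 4.48 CPM (mCRS). Its log2 fold change between regions in mCRS mice was -0.49 (-2.48 to 1.5), which was not called and moved with the fit. Adjusted for the detected share of genes it was -1.66, adjusted for library size -1.18 and with the replicate number as a block -0.05, none of them called by edgeR. The 2-AG hydrolases were also compared within each library, as a description: Mgll made up a median of 78.7% of the summed Mgll and Abhd6 counts in PFC CTR (59.3% to 94.4%) and 68.9% in NAc CTR (40.5% to 97.7%), with overlapping groups.

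**Figure D2:**
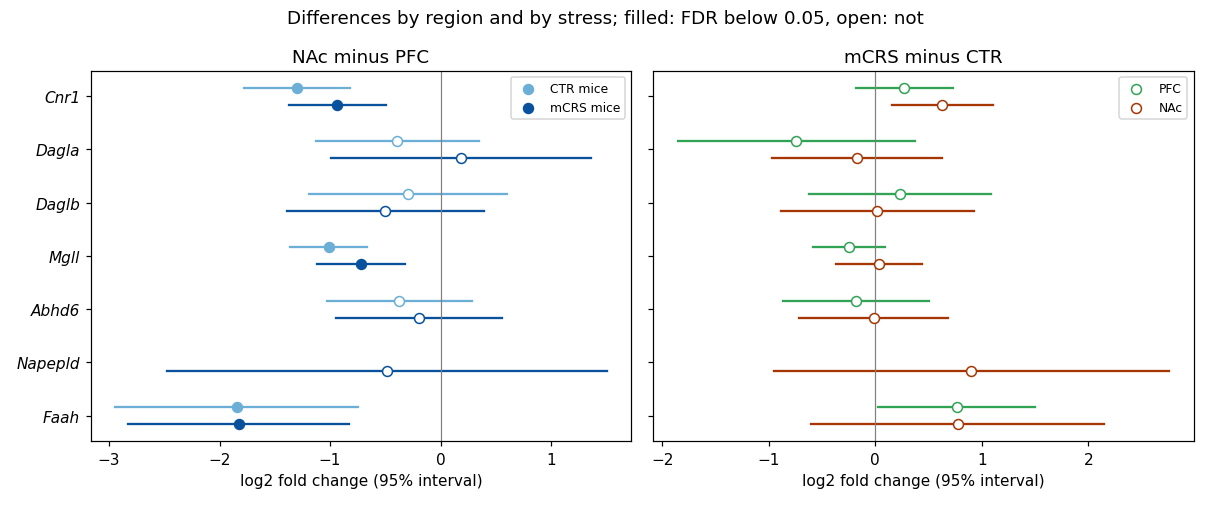
Points are log2 fold changes from edgeR with 95% intervals, NAc minus PFC on the left (CTR and mCRS mice) and mCRS minus CTR on the right (PFC and NAc); filled points passed FDR 0.05. Only Cnr1, Mgll and Faah are filled, and only in the regional comparison, where all 6 of their points lie below 0.

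The other genes of the pathway were taken from 5 lists of 51 genes in all, of which 42 were in the table. In CTR mice 7 of 40 tested were called (17.5%), 6 lower and 1 higher in NAc, with a median of -0.26 beside 0.02 over all genes. In mCRS mice 8 of 39 were called, 6 lower and 2 higher, with a median of -0.33.

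Among 14 partners and transducers of CB1, 3 were called lower and 1 called higher in NAc of CTR mice, and 12 had values below 0. Adcy1, a calmodulin-stimulated adenylyl cyclase, was lower (-2.28, SE 0.20, FDR = 6.62e-13) and Adcy5, the main striatal adenylyl cyclase, was higher (2.0, SE 0.19, FDR = 1.19e-11). Gnai1, an inhibitory G protein alpha subunit, was also lower (-0.84, FDR = 0.00275). In mCRS mice 2 were called lower, Adcy1 (-2.04) and Rgs4 (-0.60, FDR = 0.0340), a regulator that speeds GTP hydrolysis by G proteins. Adcy5 (1.97) and Gnai2 (0.68, FDR = 0.00648) were called higher.

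Of 7 partners of the diacylglycerol lipases and of endocannabinoid plasticity, 5 were tested and all 5 had negative values in both comparisons. In CTR mice 2 were called lower: Dgkz, a diacylglycerol kinase that consumes the substrate of the lipases (-1.39, SE 0.23, FDR = 1.34e-05), and Camk2a, the kinase that phosphorylates Dagla (-1.09, SE 0.14, FDR = 7.44e-08). In mCRS mice 3 were called lower, with the largest values for Homer1, the scaffold that links Dagla to metabotropic glutamate receptors (-0.89, FDR = 0.00395), and Dgkz (-0.81, FDR = 0.0244).

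Of 13 genes upstream of endocannabinoid synthesis in the table, 1 was called, the G protein gene Gnaq, lower in NAc of CTR (-0.59, FDR = 0.0136) and of mCRS mice (-0.73, FDR = 0.0165). None of 7 genes for other breakdown enzymes and lipid carriers was called in either comparison. Of 8 genes for other receptors of cannabinoids and related lipids, the table held only Ppard, a nuclear receptor, which was not called (0.45, SE 0.85, in CTR mice).

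**Figure D3:**
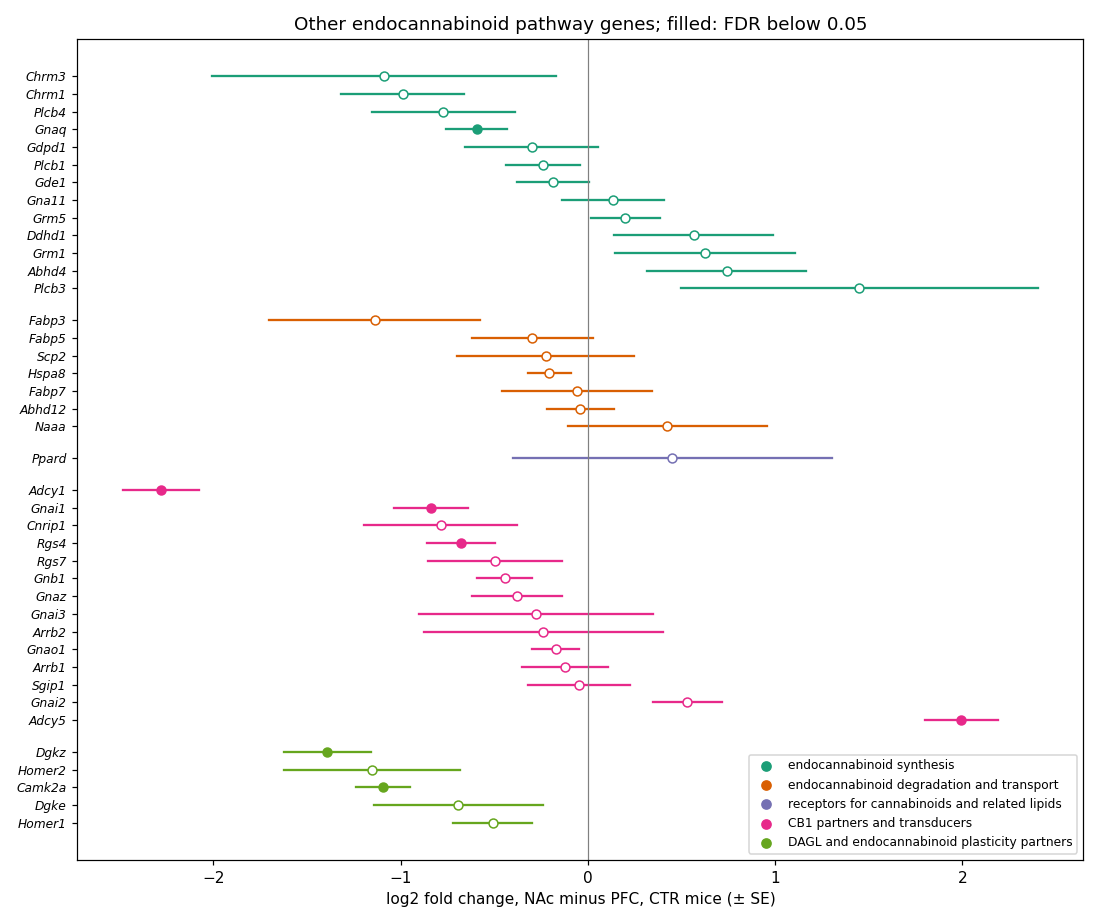
Each point is the log2 fold change of NAc against PFC in CTR mice for 1 of 40 other pathway genes, with its standard error, coloured by list; filled points passed FDR 0.05. Of the 7 filled points, Adcy5 alone lies to the right of 0.

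The second question was whether mCRS changed these genes within a region. In PFC none of the 6 members tested was called, and 0% of the 8916 genes tested were called by edgeR, with 312 genes (3.5%) at an unadjusted p under 0.05. DESeq2 called 5 genes, no member among them, but of the members tested it gave an FDR only for Mgll (0.462). Of the members only Faah reached an unadjusted p under 0.05.

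Faah had a median of 52.4 CPM in PFC CTR and 88.8 CPM in PFC mCRS. Of 15 mCRS libraries 12 lay above the CTR median and 3 above the highest CTR library, while 1 lay below the lowest. The log2 fold change was 0.76 (SE 0.37, 95% interval 0.03 to 1.5, unadjusted p = 0.0416 and FDR = 1.0 by edgeR). Adjusted for the detected share of genes, the unadjusted p by edgeR was 0.127, and leaving out 1 library at a time gave 0.60 to 0.95. DESeq2 gave 0.78 with an unadjusted p of 0.0213 and no FDR.

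Dagla counts in stressed PFC fell into a low and a high range. The counts in PFC CTR were 20 to 610, with a median of 189, and no library was near 0. In PFC mCRS 5 of 15 libraries held 0 to 2 counts (replicates 3, 6, 9, 12 and 14), and the other 10 held 60 to 765 counts. These 5 libraries all lay below the lowest PFC CTR library, and 12 of 15 lay below the CTR median. The log2 fold change was -0.74 (SE 0.56, -1.86 to 0.38, unadjusted p = 0.189, FDR = 1.0 by edgeR), which did not pass the test. The 5 libraries had total counts of 1094940 to 2149666, and detected 69.7% to 84.1% of the listed genes. The other 10 had 1579255 to 3903479 counts and detected 76.9% to 93.0%. Of the 8916 genes tested in PFC, 2 (0.0224%), one of them Dagla, had 5 or more mCRS libraries at 2 counts or fewer and every CTR library at 20 or more, limits that were set after the Dagla values were seen. The converse pattern was found for 1 gene (0.0112%). Libraries near 0 were common by themselves: 1616 genes (18.1%) had 5 or more PFC mCRS libraries at 2 counts or fewer, whatever their CTR counts, and 816 genes (9.15%) had 5 or more such PFC CTR libraries. Of the 10141 genes tested in NAc, 1 had 5 or more such mCRS libraries and every CTR library at 20 or more. The converse was found for 0 genes. Whatever the counts of the other group, 1566 genes had 5 or more NAc mCRS libraries at 2 counts or fewer. For NAc CTR libraries it was 1111 genes. Dagla had 1 NAc CTR library and no NAc mCRS library at 2 counts or fewer. The part of depth in the 5 low values was not tested.

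**Figure D4:**
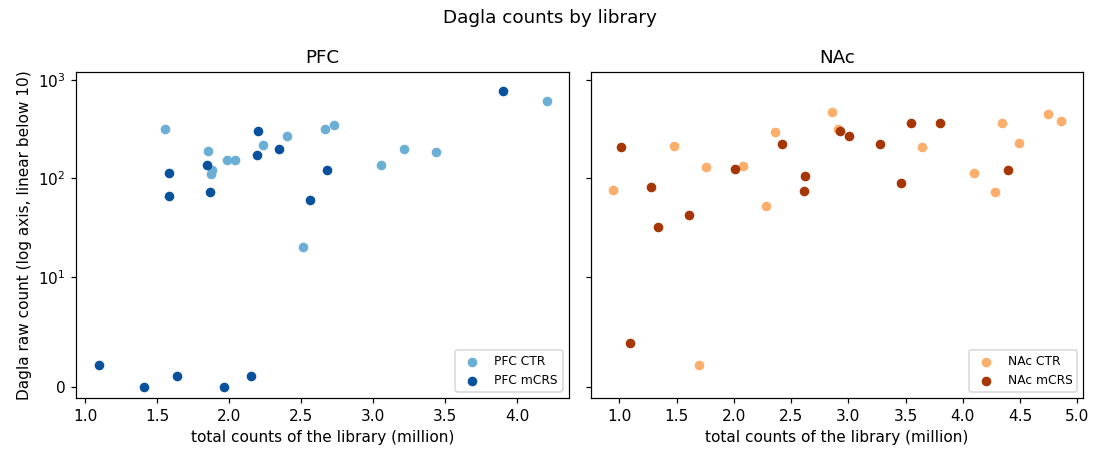
Raw counts of Dagla (vertical axis, logarithmic, linear below 10) are plotted against the total counts of each library (axis scaled by 1000000), for PFC on the left and NAc on the right. The 5 PFC mCRS libraries with 0 to 2 counts lie apart from every PFC CTR library, the lowest of which held 20 counts.

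The remaining members in PFC had intervals that included 0. Cnr1 was 0.27 (-0.18 to 0.73) and Mgll -0.25 (-0.59 to 0.09), the narrowest interval of the set. Daglb was 0.23 (-0.62 to 1.08) and Abhd6 -0.18 (-0.86 to 0.50). Napepld failed the filter in PFC, where 5 libraries of each group were at 0, and 4 mCRS libraries exceeded the highest CTR library. The share of Dagla in the summed Dagla and Daglb counts of a library had a median of 60.3% in PFC CTR (9.35% to 96.0%) and 42.6% in PFC mCRS (0% to 89.6%), as a description.

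In NAc none of the 7 members was called under mCRS. Of the 10141 genes tested, 0.00986% were called, which is 1 gene, Ttr, that was no longer called without NAc CTR 7 and NAc mCRS 10, and 207 genes (2.04%) were at an unadjusted p under 0.05. Cnr1 was the only member at that level. Its median was 91.2 CPM in CTR and 143 CPM in mCRS mice: 14 of 16 mCRS libraries lay above the CTR median, 5 above the highest CTR library, and none below the lowest. The log2 fold change was 0.63 (SE 0.24, 95% interval 0.16 to 1.10, unadjusted p = 0.00996, FDR = 1.0 by edgeR), so it did not pass the correction over all genes. Without NAc CTR 7 it was 0.56 (unadjusted p = 0.0139 by edgeR), and without that library and NAc mCRS 10 it was 0.55 (unadjusted p = 0.0188 by edgeR).

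Cck, the marker with most counts on the interneuron list, had a value of the same sign in NAc (1.07, SE 0.34, unadjusted p = 0.00267, FDR = 1.0 by edgeR). Bulk RNA does not show which cells held Cck, so its value cannot be read as one of interneurons. The interneuron list as a whole had 4 of 10 tested genes below 0 and a median of 0.04. Its summed level was 631 to 980 CPM (median 784 CPM) in NAc CTR and 626 to 1160.5 CPM (median 845 CPM) in NAc mCRS. Summed cortical excitatory markers were 146 to 550 CPM in NAc CTR and 216 to 812 CPM in NAc mCRS. Their median was lower in mCRS (333 CPM) than in CTR (356 CPM), and the CTR minimum was NAc CTR 7. The part of either list in the Cnr1 value was not tested.

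The other members in NAc were close to 0 or imprecise. Mgll was 0.03 (-0.37 to 0.43), Abhd6 -0.02 (-0.72 to 0.68) and Daglb 0.02 (-0.89 to 0.93). Dagla was -0.17 (-0.97 to 0.63). Faah was 0.77 (-0.60 to 2.15) and Napepld 0.90 (-0.95 to 2.76), intervals that hold differences of more than 2-fold.

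A direct test of whether the stress response differed between regions, as the response in PFC minus that in NAc, called none of the 7 members, against 0.00907% of 11025 genes called and 3.09% at an unadjusted p under 0.05. Cnr1 had the smallest unadjusted p (-0.37, -1.01 to 0.27, p = 0.254 by edgeR). Dagla was -0.57 (-1.98 to 0.83), Mgll -0.29 (-0.81 to 0.23), Abhd6 -0.17 (-1.14 to 0.80) and Daglb 0.20 (-1.07 to 1.46). Faah was 0.00 (SE 0.72) and Napepld 0.19 (SE 1.48). The regional difference of Cnr1 was therefore not shown to be smaller in stressed mice, although its value was -0.94 there and -1.30 in CTR mice.

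No other pathway gene was called under mCRS in either region, among 39 tested in each. At an unadjusted p under 0.05 there were 5 in PFC and 0 in NAc. In PFC the smallest p of each list belonged to Camk2a (-0.36, SE 0.14, p = 0.0100 by edgeR), the cannabinoid receptor regulator Arrb1, a beta-arrestin (-0.67, SE 0.30, p = 0.0287 by edgeR), the fatty acid carrier Fabp7 (0.88, SE 0.44, p = 0.0485 by edgeR), the muscarinic receptor Chrm3 (1.66, SE 0.86) and Ppard (-0.90, SE 1.0). In NAc they were the metabotropic receptor Grm5 (-0.37, SE 0.19), Homer1 (-0.34, SE 0.22), Fabp7 (0.42, SE 0.29), the G protein beta subunit Gnb1 (0.20, SE 0.14) and Ppard (0.16, SE 0.77). In the test of the difference between regions the corresponding genes were Grm5 (0.60, SE 0.28), Arrb1 (-0.79, SE 0.37), Camk2a (-0.43, SE 0.20), Fabp5 (-0.56, SE 0.57) and Ppard (-1.06, SE 1.30), with no call.

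Ordered by mean log2 CPM (± SD, n = 15 in each PFC and 16 in each NAc group), Cnr1 ran from PFC mCRS (8.02 ± 0.72) over PFC CTR (7.79 ± 0.61) and NAc mCRS (7.16 ± 0.51) to NAc CTR (6.45 ± 0.79). The groups within a region, which are neighbours in that order, were not called after correction over all genes. Mgll ran from PFC CTR (8.41 ± 0.43) over PFC mCRS (8.16 ± 0.37) and NAc CTR (7.39 ± 0.47) to NAc mCRS (7.37 ± 0.63). Faah, with the widest spread of the 3, ran from PFC mCRS (6.43 ± 1.08) over PFC CTR (5.78 ± 0.82) and NAc mCRS (4.10 ± 2.06) to NAc CTR (3.37 ± 1.90). For Mgll and Faah, too, neighbours within a region were not called.

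Dagla had its highest mean in PFC CTR (6.31 ± 1.05), followed by NAc CTR (5.69 ± 1.57), NAc mCRS (5.56 ± 1.31) and PFC mCRS (4.21 ± 2.96). No pair of neighbours in the Dagla order was shown to differ. Daglb ran from 6.01 ± 1.09 in PFC mCRS to 5.24 ± 1.82 in NAc mCRS, Abhd6 from 6.40 ± 0.82 in PFC CTR to 5.89 ± 1.21 in NAc mCRS and Napepld from 2.33 ± 2.59 in PFC mCRS to 1.75 ± 2.01 in PFC CTR, in each case with spreads wider than the steps between groups.

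Within groups the correlations between members were weak. Over 30 PFC libraries, with group means subtracted, Pearson's r between the 15 pairs of the 6 members tested in both regions ran from -0.32 to 0.26 (median -0.09), and over 32 NAc libraries from -0.42 to 0.40 (median 0.03). The lowest NAc value, -0.42, was between Dagla and Daglb, which had -0.09 in PFC. For Cnr1 the most alike of 8716 genes, by the lower of the PFC and NAc values, were Mapre2 (0.57 and 0.51) and Nalcn (0.50 and 0.47). For Dagla they were Tnfaip1 (0.52 and 0.57) and Mboat7 (0.58 and 0.50), and for Mgll Wipf3 (0.49 and 0.48) and Cmss1 (0.45 and 0.46). For Faah they were Clk3 (0.49 and 0.60) and Sec24c (0.46 and 0.51), for Abhd6 Lancl1 (0.60 and 0.56) and Eif2a (0.47 and 0.59), and for Daglb Mtor (0.55 and 0.48) and Cacnb3 (0.47 and 0.55). These values describe likeness over libraries that share depth and pooled preparation, and they are the highest of many pairs.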

How the data were processed

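Total RNA of PFC and NAc was sequenced by BRB-seq, without molecular identifiers in the counts. Per the labels and the study's methods, the authors aligned reads with STAR to mm10 (GRCm38), counted them per gene with HTSeq (0.9.1 in the submitters' processing notes) and left out 2 PFC samples. The deposited values are raw read counts. Groups came from the sample titles. Symbols were matched for 11120 of 11121 identifiers.

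Counts were tested with edgeR 4.0.16 (R 4.3.3): TMM scaling, filterByExpr by group, quasi-likelihood test, two-sided, FDR 0.05 over all genes tested, with no covariate and the libraries of the groups compared. Levels are CPM or log2 CPM with a prior count of 2. Intervals are 95% intervals of the coefficient. The tests were checked on simulated data. Alternatives were DESeq2 1.42.0, other scalings and filters, covariates, a replicate block and leaving out libraries. The members, gene lists and tests were chosen with earlier results of these data known. Named are all members, up to 2 called genes per list and direction, or, without calls, the gene of each list with the smallest p. By the study's methods each mouse gave PFC and NAc tissue, so libraries of the regions share animals, but which libraries share a mouse is not given in the sources used here, and the regional tests treat them as independent. Same-numbered PFC and NAc libraries had correlations of their deviations of -0.046 to 0.013 in CTR and -0.026 to 0.040 in mCRS mice. The same-numbered library was the most alike for 0 of 15 in CTR and 3 of 15 in mCRS mice. Between CTR and mCRS libraries of a region, from different mice, they were -0.05 to 0.14 (1 pair above 0.1). No pair known to share a mouse was at hand to show that this measure detects pairing. Numbers were not used as pairs.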

Additional observations from a re-analysis of the deposited data

How the results depend on the processing

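Across the alternatives other than leaving out single libraries, Cnr1, Mgll and Faah stayed lower in NAc and called in CTR and mCRS mice, with 1 exception: adjusted for the detected share of genes, Faah in mCRS mice was -1.84 with an edgeR FDR of 0.0605, and 2 members were called. Cnr1 ranged from -1.39 to -1.23 in CTR and from -0.98 to -0.87 in mCRS mice, Mgll from -1.05 to -0.95 and from -0.77 to -0.66, and Faah from -2.46 to -1.77 and from -2.36 to -1.74. Leaving out 1 library at a time in CTR mice, 2 to 3 members and 7 to 9 of the other pathway genes were called; Cnr1 ran from -1.37 to -1.16, Mgll from -1.07 to -0.95 and Faah from -2.10 to -1.65. Leaving out single libraries in mCRS mice between regions, and in the test of the difference between regions, was not planned and not run.

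Under mCRS no member and no other pathway gene was called in PFC, in NAc or in the difference between regions under any alternative. In PFC, however, DESeq2 gave no FDR for Cnr1, Dagla, Daglb, Abhd6 and Faah, so it could not call them. Mgll had a DESeq2 FDR of 0.462 there. Cnr1 in NAc stayed between 0.55 and 0.75 (unadjusted p of 0.00258 to 0.0188) and between 0.55 and 0.70 without single libraries. Values near 0 changed sign. In NAc, Daglb was -0.014 with upper-quartile scaling and -0.099 with the replicate block, Mgll -0.019 with the block, and Abhd6 0.0023 with the listing run as a covariate and 0.046 without NAc CTR 7 and NAc mCRS 10. The listing run marks whether a sample came in the first or the second stretch of its group in the order of the samples. The labels do not name it as a batch. Without single NAc libraries Daglb ran from -0.103 to 0.19, Mgll from -0.038 to 0.101 and Abhd6 from -0.096 to 0.085. For the difference between regions, Faah was -0.016 with upper-quartile scaling, -0.0068 without mtDNA genes, -0.021 without a filter, -0.0064 with a filter of at least 10 counts, -0.073 with the block and -0.021 with library size as a covariate. The cause of these shifts was not tested.

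With the replicate number as a block, 3 members were called between regions in CTR and in mCRS mice and none under mCRS, and Dagla under mCRS in PFC was -1.74 (unadjusted p = 0.0192, not called). CTR and mCRS libraries come from different mice, so a shared number pairs no mouse in that comparison. The block there has no basis in the labels, and that value is no better founded. Mean levels moved by less than 1 SD with a prior count of 0.5. The Napepld values had the widest errors (SE 0.93 to 1.48) in the comparisons that tested it, and the parts of depth and of amplification in the spread between libraries were not tested.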
